A study of Homo sapiens with 5 samples.

Results

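At 3489 promoters of SNU638, a human cell line established from gastric cancer, there was a BRG1 peak, an ACTL6A peak and an NRF2 peak at the same place. They were chosen by a rule on the peak lists themselves: a BRG1 peak at most 1 kb from the start of a protein-coding transcript (GENCODE release 44) that shared at least 1 bp with an ACTL6A peak and with an NRF2 peak, and no base with a peak of the second IgG library. Of 48793 BRG1 peaks, 15151 lay at such a start without an IgG 2 peak, and the 3489 members were 23.0% of these (Wilson 95% interval 22.4% to 23.7%). Membership was therefore selected on peak presence, and the heights, widths and overlaps of the 3 peaks are given below as a description, with no test.

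Binding was profiled with CUT&Tag, in which an antibody directs a protein A and Tn5 transposase fusion to the chromatin around its target and the transposase inserts sequencing adapters there. The cells were grown in medium with serum, about 100000 were used per assay, and the labels name no treatment and no altered gene. The 5 libraries were 1 each with anti-BRG1, anti-ACTL6A and anti-NRF2 and 2 with IgG, and the IgG 1 list held 11 peaks and the IgG 2 list 1746. There were no replicate libraries of an antibody, so the intervals below treat peaks as independent and hold counting error alone.

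BRG1, encoded by SMARCA4, is an ATPase that drives nucleosome remodelling by SWI/SNF complexes. ACTL6A is an actin-like subunit of those complexes and also of the INO80 and TIP60 complexes. NRF2, encoded by NFE2L2, is the main transcription factor of the response to oxidants and electrophiles. With a small MAF partner it binds the antioxidant response element (ARE), and the ligase formed by KEAP1, CUL3 and RBX1 otherwise marks it for degradation.

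The 9-base core of that element, TGACNNNGC on either strand, was read from the reference genome at members. Those of 5 known NRF2 target genes are shown first because, of 10 such members, these had a core inside the NRF2 peak. Each is centred on the core nearest the NRF2 summit and given 5′ to 3′ on the strand that reads TGAC, with the core in capitals. Where the surroundings overlapped an exon, 29 bases are shown in place of 61.
NQO1, chr16:69726981-69727041, minus strand: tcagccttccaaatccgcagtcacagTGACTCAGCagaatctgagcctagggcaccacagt
PRDX1, chr1:45521991-45522051, plus strand: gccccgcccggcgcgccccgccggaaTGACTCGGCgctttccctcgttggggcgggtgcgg
PGD, chr1:10398837-10398897, minus strand: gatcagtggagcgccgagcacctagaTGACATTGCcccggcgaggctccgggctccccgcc
TXN, chr9:110257054-110257114, plus strand: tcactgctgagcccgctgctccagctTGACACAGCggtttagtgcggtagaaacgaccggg
TXNRD1, chr12:104286920-104286948, minus strand: agagtcagaaTGACAAAGCagaaatccac
The cores of PRDX1 and PGD lay 54 and 95 bp from the NRF2 summit, and those of TXNRD1, TXN and NQO1 118, 201 and 217 bp from it.

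The next set holds the members with the most NRF2 fragments among the 361 that had a core within 100 bp of the NRF2 summit. None of the 5 is on the list of known NRF2 targets.
ENSG00000270249, chr7:102592782-102592842, minus strand: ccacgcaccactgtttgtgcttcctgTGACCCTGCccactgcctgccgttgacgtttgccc
LUC7L2, chr7:139359685-139359745, minus strand: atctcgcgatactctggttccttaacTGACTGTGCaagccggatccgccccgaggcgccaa
SF1, chr11:64778798-64778858, plus strand: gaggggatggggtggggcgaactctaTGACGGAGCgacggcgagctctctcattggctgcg
WDR81, chr17:1716505-1716533, minus strand: gactctcgttTGACGTAGCgcttttctaa
RRAS, chr19:49640458-49640518, plus strand: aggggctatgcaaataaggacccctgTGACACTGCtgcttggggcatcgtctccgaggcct
Their NRF2 summits held 86 fragments at ENSG00000270249, 75 at LUC7L2, 68 each at SF1 and WDR81 and 60 at RRAS. The core lay 7 bp from the summit at LUC7L2 and SF1, 40 bp from it at ENSG00000270249 and WDR81 and 75 bp from it at RRAS.

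General promoter motifs were also found at members, though not all of them more often than in every other promoter class. The highest member with each is shown where the sequence near the BRG1 summit could be printed without exons (the direction is that of the nearest start). Capitals mark CCAAT boxes (CCAAT, the site of NF-Y), GC boxes (GGGCGG, the site of SP and KLF factors), ETS cores (CCGGAAG), NRF1 cores (GCGCANGCG) and ARE cores, on either strand.
PRKCSH, chr19:11435186-11435283, plus strand: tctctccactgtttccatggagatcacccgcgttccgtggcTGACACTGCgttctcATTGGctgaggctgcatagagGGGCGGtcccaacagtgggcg
VMAC, chr19:5904371-5904570, plus strand: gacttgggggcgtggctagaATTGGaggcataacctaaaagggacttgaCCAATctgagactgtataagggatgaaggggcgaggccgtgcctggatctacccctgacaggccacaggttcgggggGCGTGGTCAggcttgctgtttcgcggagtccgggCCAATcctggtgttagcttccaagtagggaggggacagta
TRIM37, chr17:59106922-59107110, minus strand: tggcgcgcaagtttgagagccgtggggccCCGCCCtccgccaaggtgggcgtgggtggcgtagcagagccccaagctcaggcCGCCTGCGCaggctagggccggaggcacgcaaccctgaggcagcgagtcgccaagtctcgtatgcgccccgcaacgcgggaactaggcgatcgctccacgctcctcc
COQ10B, chr2:197453335-197453492, plus strand: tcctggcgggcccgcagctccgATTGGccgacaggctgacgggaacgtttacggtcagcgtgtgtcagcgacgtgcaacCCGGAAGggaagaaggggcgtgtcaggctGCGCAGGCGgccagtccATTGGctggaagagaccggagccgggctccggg
Shorter stretches are given for 3 rarer motifs, in capitals: CTCGCGAG, bound by BANP, the cAMP response element (CRE) TGACGTCA, and the YY1 core AAGATGGCG.
WAC, chr10:28532908-28532935, plus strand: cggtggccgaCTCGCGAGtgaggaaaag
NUP98, chr11:3797798-3797825, minus strand: aggccctgtgTGACGTCAcgacacgctc
NMT1, chr17:45061317-45061345, plus strand: ctcgcaactcAAGATGGCGgacgagagtg
The stretch at PRKCSH, which starts back to back with ODAD3, held an ARE core, a CCAAT box and a GC box within 42 bases, and COQ10B held 2 CCAAT boxes, an ETS core and an NRF1 core. A match is a run of letters in the window and says nothing of which factor was there.

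The lists give no reads, so the fragments at each summit were recovered from the fold enrichment and p-value of the peak caller. This gave a value for every member in each list except the BRG1 peak of FAM86B1. At members BRG1 had a median of 33 fragments at the summit (quartiles 22 and 49, lowest 5, highest 389), ACTL6A 12 (9 and 18, lowest 3, highest 214) and NRF2 19 (15 and 26, lowest 8, highest 170). The median fold enrichment over the local expectation was 11.4 for BRG1, 7.61 for ACTL6A and 5.04 for NRF2, which are not comparable between libraries of different depth. BRG1 peaks at members were tall among promoters: the median was 21 fragments at the 2732 promoters with BRG1 and ACTL6A only, 21 at the 1372 with BRG1 and NRF2 only, and 13 at the 7558 with BRG1 alone.

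The share of BRG1 promoter peaks that were members rose with BRG1 height. Of peaks with under 10 fragments, 2.28% were members (1.79% to 2.91%, 63 of 2763), and of those with 10 to 19, 10.7% (9.94% to 11.6%). The share was 31.4% at 20 to 39 fragments (30.1% to 32.7%) and 60.7% at 40 or more (58.6% to 62.7%, 1343 of 2213). BRG1 alone went the other way, from 83.4% of the lowest peaks to 11.7% of the highest. Joint presence and BRG1 height therefore cannot be told apart in these lists.

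Heights moved together across members. Spearman's rho over the members was 0.554 between BRG1 and ACTL6A (n = 3488), 0.501 between BRG1 and NRF2 and 0.405 between ACTL6A and NRF2, as a description of points that were chosen for having all 3 peaks. The median ACTL6A height rose from 6 to 17 fragments, and that of NRF2 from 13 to 25, between the lowest and the highest BRG1 group.

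The tops of the 3 lists differed in how far they reached members. Of the 100 highest peaks, 50 of BRG1, 28 of ACTL6A and 2 of NRF2 overlapped a member. The top of the NRF2 list was also shared with the control: 95 of its 100 highest peaks overlapped an IgG 2 peak, against 34 for ACTL6A and 7 for BRG1. Among all NRF2 peaks, 3392 (37.5%) overlapped a member, of which 1 had an IgG 2 peak on it, and of the other 5653 NRF2 peaks 17.9% did (16.9% to 18.9%). The rule itself barred an IgG 2 peak on the BRG1 peak, which removed 6 promoters that would otherwise have been members. None of the members had an IgG 1 peak.

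The 10 members with the best worst rank over the 3 lists were FAM86B1, FARP2, VMAC, ENSG00000270249, SF1, ABCA7, RALY, PRKCSH, ELL and CIC. At FARP2, a guanine nucleotide exchange factor gene (chr2:241355287-241356252), BRG1 had 332 fragments, ACTL6A 86 and NRF2 83. ELL, an elongation factor of RNA polymerase II (chr19:18521913-18522674), had 223, 53 and 56 fragments. CIC, a transcriptional repressor (chr19:42268372-42269187), had 166, 49 and 63. These 3 were high in every list, with fold enrichments of at least 16.8 for BRG1 and 14.2 for ACTL6A, and NRF2 lowest at 7.18.

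Several of the highest members also had a high local expectation. ENSG00000270249 (chr7:102592284-102593182) had 389 BRG1 fragments over 30.0 expected, ABCA7, a lipid transporter gene (chr19:1062826-1063499), 219 over 15.1, and FARP2 332 over 18.8. The median expectation at members was 1.95 fragments. SF1, a splicing factor (chr11:64778455-64779179), had 149 BRG1, 34 ACTL6A and 68 NRF2 fragments over 6.56, 1.63 and 5.49 expected. At PRKCSH, a subunit of glucosidase II (chr19:11434871-11435561), the values were 79, 38 and 54 over 3.29, 1.50 and 4.80. The highest members thus ranged widely in local expectation, and its part in their rank was not tested.

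The 3 peaks lay on one another. In 95.6% of members some bases lay in all 3 peaks, and the ACTL6A peak was inside the BRG1 peak in 62.0%. The NRF2 peak was inside the BRG1 peak in 34.9%, and the BRG1 peak inside the NRF2 peak in 13.1%. Median widths were 648 bp for BRG1, 363 bp for ACTL6A and 603 bp for NRF2. Between summits the median distance was 67 bp for BRG1 and ACTL6A (64 to 70), 125 bp for BRG1 and NRF2 (118 to 131) and 135 bp for ACTL6A and NRF2 (128 to 142). Each partner was the overlapping peak whose summit lay nearest the BRG1 summit. The overlap rule, this choice and the peak widths bound the distances, so their order does not say which proteins lay closer together.

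In some members the summits fell on the very same base. The ACTL6A summit was on the BRG1 summit base in 169 members (4.84%) and the NRF2 summit in 132 (3.78%), and all 3 coincided in 27 (0.774%, 0.532% to 1.12%). Among the 100 members with the best worst rank all 3 coincided in 7, among them FAM86B1 and ELL, where every summit lay 208 bp and 270 bp upstream of the start. RRAS and WDR81, shown above, were likewise on 1 base, at 420 and 44 bp upstream. The 27 had a median of 65.5 BRG1 fragments, above the median of 33 over all members.

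Summits lay near the start, more often upstream than downstream of it, and NRF2 was spread more widely around it than the remodeller subunits. For every antibody the start used was the one nearest the BRG1 summit, a choice that favours BRG1. A start lay inside the BRG1 peak in 3123 members (89.5%). The median distance from summit to that start was 104 bp for BRG1 (98 to 108), 138 bp for ACTL6A (132 to 143) and 176 bp for NRF2 (169 to 181). ACTL6A was upstream in 71.8% of members (70.3% to 73.2%), BRG1 in 65.2% (63.6% to 66.7%) and NRF2 in 56.5% (54.9% to 58.2%). With the 2740 members whose starts were all on 1 strand, these shares were 72.7%, 68.4% and 56.0%. The BRG1 summit of the other promoters lay upstream in 58.8% with BRG1 and ACTL6A, 48.1% with BRG1 and NRF2, and 48.5% with BRG1 alone.

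**Figure D1:**
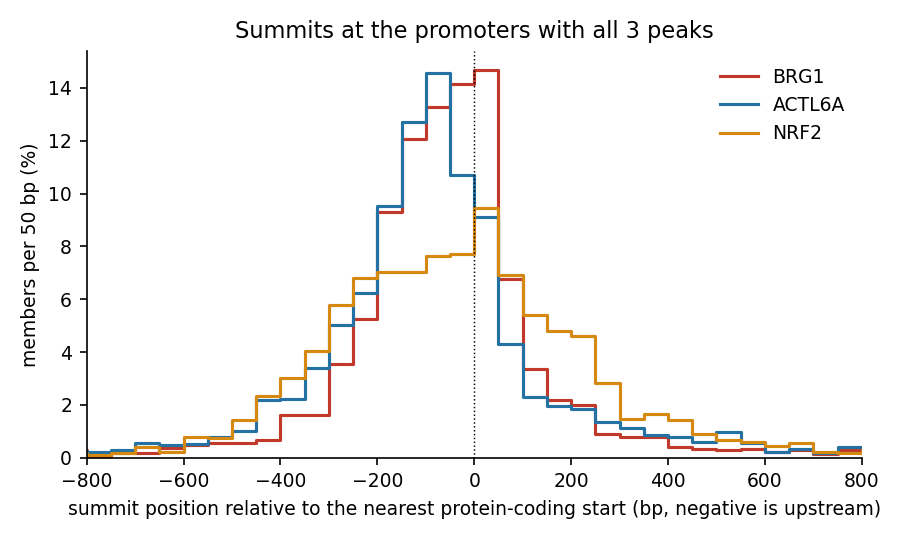
Position of the BRG1, ACTL6A and NRF2 summits of the 3489 members relative to the protein-coding start nearest the BRG1 summit (bp, negative is upstream), as a percentage of members per 50 bp. BRG1 and ACTL6A gather close to the start (medians of 54 and 88 bp upstream), while NRF2 is broader with a median of 43 bp upstream. The fullest bin is 0 to 50 bp downstream for BRG1 (14.7%) and 100 to 50 bp upstream for ACTL6A (14.6%).

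The rule used no sequence, and of the annotation it used only a protein-coding start within 1 kb, which all 4 promoter classes had, so the classes could be compared on sequence and on the arrangement of starts. Divergent promoters, with starts of protein-coding genes back to back at most 1 kb apart, made up 20.1% of members (18.8% to 21.4%, 700 of 3489). The share was 9.37% with BRG1 and ACTL6A, 13.0% with BRG1 and NRF2 and 5.45% with BRG1 alone. The members exceeded these by 10.7 (Newcombe 95% interval 8.96 to 12.4), 7.02 (4.73 to 9.18) and 14.6 (13.2 to 16.1) percentage points. All 3 intervals excluded 0.

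The excess in divergent promoters was present at each BRG1 height. Against BRG1 and ACTL6A it was 12.2 percentage points with under 10 fragments (3.56 to 23.8), 11.4 with 10 to 19, 11.6 with 20 to 39 and 9.20 with 40 or more (5.41 to 12.5). Against BRG1 and NRF2 the interval included 0 in the lowest group, at 7.48 (-2.95 to 19.7). Member peaks were wider, with a median of 648 bp against 466, 497 and 287 bp. With starts counted within 1 kb of the BRG1 summit instead of the peak, an alternative added after the data were seen, the shares were 19.7%, 9.04%, 12.3% and 5.16%.

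Examples of such pairs were PRKCSH with ODAD3, a cilium gene, and SARS2 with MRPS12, a mitochondrial tRNA synthetase and a mitochondrial ribosomal protein, where BRG1 had 64, ACTL6A 24 and NRF2 24 fragments. PSMB8 and PSMB9, subunits of the immunoproteasome, shared a member with 57, 17 and 19 fragments. In all, 823 members (23.6%) had starts of 2 or more genes. A start of a lncRNA lay within 1 kb of 26.5% of members, 6.07 percentage points above BRG1 and ACTL6A (3.95 to 8.16) and 8.51 above BRG1 alone (6.83 to 10.2), but 1.60 from BRG1 and NRF2 (-1.16 to 4.27), an interval that includes 0.

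Members had CpG-rich sequence without being the richest in GC. In 200 bp at the BRG1 summit the median observed over expected CpG was 0.800 (0.792 to 0.808) in members, 0.737 (0.727 to 0.750) with BRG1 and ACTL6A, 0.826 (0.812 to 0.842) with BRG1 and NRF2 and 0.744 (0.735 to 0.751) with BRG1 alone. Median GC content was 65.5%, 64.5%, 70.5% and 68.0% in the same order. Over all heights both classes with NRF2 were thus higher in CpG than those without, but at 40 or more BRG1 fragments members were at 0.791 (0.780 to 0.800) and BRG1 alone at 0.815 (0.776 to 0.836). Members were lower in GC than promoters with BRG1 alone.

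The CCAAT box was commoner in members than in each of the other classes. It was found in the 200 bp around the BRG1 summit of 35.3% of members (33.8% to 36.9%), against 27.1% with BRG1 and ACTL6A, 17.7% with BRG1 and NRF2 and 15.5% with BRG1 alone. The differences were 8.22 (5.90 to 10.5), 17.6 (15.0 to 20.1) and 19.9 (18.1 to 21.6) percentage points. In flanks 1 kb to either side of member summits 21.8% of windows held it, and 25.2% of 200 bp windows at all protein-coding genes' starts did. Within BRG1 height groups the difference from BRG1 and ACTL6A shrank to between 3.61 and 4.31 percentage points, and its interval excluded 0 in 1 of the 4 groups, at 20 to 39 fragments (3.86, 0.222 to 7.44). At 40 or more fragments the share was 42.1% in members, 21.7 percentage points above BRG1 and NRF2 (15.0 to 27.4) and 20.1 above BRG1 alone (14.1 to 25.5).

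The 2 classes with ACTL6A thus held CCAAT boxes around the BRG1 summit more often than those without. That summit lay upstream of the start in 65.2% and 58.8% of these classes, against 48.1% and 48.5% of the others. The part of this shift in the difference was not tested. CCAAT boxes were narrow in position as well. Around the starts of the 2740 members with starts on 1 strand, CCAAT boxes reached 25.1 matches per 100 members in the bin 100 to 50 bp upstream, against 6.39 in the farthest upstream bin of 50 bp and 3.36 in the lowest bin, 150 to 200 bp downstream. The BRG1 summits of those members lay a median of 73 bp upstream.

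Other promoter motifs peaked at their own places. ETS cores reached 8.43 and NRF1 cores 7.52 matches per 100 members in the 50 bp before the start, and GC boxes 48.4. YY1 cores reached 3.14 in the 50 bp after the start, against at most 0.693 in any other bin. TATA boxes (TATAAA) were scarce at 1.39 in the 50 bp before the start, and rose to 4.74 about 850 to 900 bp upstream. GC content was not measured in these bins, and in flanks 1 kb to either side of member summits its median was 47.0%.

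Of 14 motifs searched on both strands, 7 differed between members and promoters with BRG1 and ACTL6A by an interval that excluded 0. GC boxes were in 62.2% of members against 52.2% (a difference of 10.0, 7.55 to 12.5), but in 62.2% with BRG1 and NRF2 too. The difference from BRG1 and ACTL6A was -4.35, 2.92, 5.16 and 3.45 percentage points from the lowest to the highest BRG1 height group, with an interval that excluded 0 only at 20 to 39 fragments (1.32 to 8.999). Against BRG1 alone the members were 11.1 percentage points higher over all heights, but the direction turned within every group, to -4.18, -4.13, -2.60 and -3.31, each with an interval that included 0. NRF1 cores were in 10.5% against 8.13%, 8.60% and 4.71% in the 3 other classes, and CTCGCGAG in 2.06% against 0.293%, 1.60% and 0.450%. The NRF1 difference from BRG1 and ACTL6A had an interval above 0 below 40 fragments, but not at 40 or more (0.256, -3.00 to 2.96). TGACG, a shorter form of the CRE that overlaps some ARE cores, was in 26.6% against 23.1%, 23.1% and 17.2%. Among the height groups its first difference had an interval that excluded 0 only at 10 to 19 fragments (5.78, 1.39 to 10.3). ETS cores were in 11.9% against 10.6%, 6.92% and 6.18%, and the first of these differences (1.29, -0.302 to 2.85) had an interval that included 0. Among the height groups that interval excluded 0 only at 10 to 19 fragments (5.57, 2.05 to 9.28). AP-1 sites (TGANTCA) were rarer in members, at 3.75%, than with BRG1 and ACTL6A at 5.05% (a difference of -1.30, -2.36 to -0.275). In 200 bp windows at all protein-coding genes' starts the shares were 53.9% for GC boxes, 22.3% for TGACG, 11.2% for ETS cores, 8.13% for NRF1 cores, 6.62% for TATA boxes, 3.06% for AP-1 sites, 2.71% for YY1 cores, 2.04% for the CRE and 1.04% for CTCGCGAG.

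In 200 bp at the BRG1 summit and over all heights, the ARE core was a little commoner in members than in promoters without NRF2. It was in 12.0% of members (11.0% to 13.1%), 2.20 percentage points above BRG1 and ACTL6A (0.634 to 3.74), 2.27 above BRG1 alone (1.03 to 3.57) and 0.712 from BRG1 and NRF2 (-1.35 to 2.64). The difference from BRG1 and ACTL6A was 1.61 in 400 bp windows (-0.383 to 3.59) and 0.406 in windows at the start (-1.18 to 1.97). Within BRG1 height groups its interval excluded 0 only at 20 to 39 fragments (2.64, 0.142 to 5.07). At 40 or more the difference was -0.524 (-4.39 to 2.84). In flanks 1 kb to either side of member summits 6.35% of windows held the ARE core, 5.66 percentage points fewer than at the summits (4.46 to 6.91). The same gap was 2.98 with BRG1 and ACTL6A (1.71 to 4.32), 4.19 with BRG1 and NRF2 (2.32 to 6.19) and 2.51 with BRG1 alone (1.74 to 3.31). At the NRF2 summits of members it was in 10.3% (9.37% to 11.4%), against 9.97% (9.56% to 10.4%) of windows at all protein-coding genes' starts. NRF2 peaks at other promoters held it in 9.86% and those away from protein-coding starts in 9.06%, and both differences from NRF2 peaks at members, 0.488 (-1.47 to 2.31) and 1.29 (-0.0392 to 2.64), had intervals that included 0. A core anywhere in the NRF2 peak was found in 28.4% of members, which depends on the width of the peak. At the CCAAT box the same NRF2 peaks differed: 27.8% at members held one, 11.6 percentage points above the 16.3% of NRF2 peaks at other promoters (9.03 to 14.0). In windows at all protein-coding genes' starts the share was 25.2%, and the difference was not split by peak height.

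The members touched 4128 genes, 21.0% of the 19689 with a protein-coding transcript and 33.0% of the 12502 with a BRG1 promoter peak free of IgG 2. Of 30 gene lists, 11 had an interval wholly above 21.0% and 4 wholly below it. Among genes with a BRG1 promoter peak, 5 lists lay wholly above 33.0% and 3 below it. Lists were written from general knowledge with earlier results of these data known, so their shares are descriptions, and several list genes share a promoter with a neighbour.

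The lists with the highest shares were the subunits of ACTL6A's other complexes and DNA replication. Of 29 genes of INO80 and TIP60 subunits, the remodelling and acetyltransferase complexes that share ACTL6A with SWI/SNF, 15 were members (51.7%, 34.4% to 68.6%). RUVBL2, an ATPase common to both complexes, had 65 BRG1, 12 ACTL6A and 30 NRF2 fragments, and BRD8, a TIP60 subunit, 32, 14 and 27. Of 40 DNA replication genes, 19 were members (47.5%, 32.9% to 62.5%), and as all 40 had a BRG1 promoter peak this interval includes the 33.0% of such genes. ORC6, of the origin recognition complex, had 76, 37 and 43 fragments, and PCNA, the sliding clamp of the polymerases, 64, 15 and 34.

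The 4 lists of protein synthesis and breakdown ranged from 36.1% to 47.2%. Members were 17 of 36 tRNA synthetase genes (47.2%), 25 of 56 translation initiation factors (44.6%), 18 of 39 proteasome subunits (46.2%) and 30 of 83 cytosolic ribosomal proteins (36.1%). EIF5A, which helps the ribosome through stalling sequences, had 56, 31 and 50 fragments of BRG1, ACTL6A and NRF2, and PSMD5, a proteasome assembly factor, 47, 21 and 55. At RPS19, a protein of the small ribosomal subunit, NRF2 had 82 fragments, BRG1 50 and ACTL6A 19. Of 37 cell cycle regulators 17 were members (45.9%), and CDK4, the kinase of cyclin D, had 66, 33 and 35. Among genes with a BRG1 promoter peak the shares of cell cycle regulators (48.6%, 33.0% to 64.4%) and cytosolic ribosomal proteins (30 of 75, 29.7% to 51.3%) had intervals that included 33.0%.

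Mitochondrial genes and zinc finger genes had lower shares, with intervals still wholly above the 21.0% of all genes. Of 87 nuclear genes of the respiratory chain, 29 were members (33.3%, 24.3% to 43.8%), with NDUFA11, a complex I subunit whose promoter it shares with VMAC, best in rank at 145, 62 and 89 fragments. Of 78 mitochondrial ribosomal proteins, 24 were members (30.8%, 21.6% to 41.7%). Among genes with a BRG1 promoter peak, the respiratory chain was at 36.7% (26.9% to 47.7%) and these proteins at 32.4% (22.9% to 43.7%). Both intervals included 33.0%. Of 246 ZNF genes on chromosome 19, 81 were members (32.9%, 27.4% to 39.02%), and of the 178 with a BRG1 promoter peak 45.5% were (38.4% to 52.8%), above the 33.0% over all such genes. ZNF558 was best in rank among these with 70, 38 and 35 fragments.

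Several lists of genes of particular cell types or body regions held few members. None of 55 keratin genes and none of 20 gastric mucosa genes was a member, with upper 95% limits of 6.53% and 16.1%, and 1 of 39 HOX genes was, HOXC4 with 33, 5 and 17 fragments. Of 390 olfactory receptor genes, silent outside the nose, 1 was a member, OR52W1, with 5, 5 and 12 fragments and an ACTL6A overlap of 4 bp. Of 20 epithelial adhesion genes 1 was a member, ESRP2, a splicing regulator of epithelial cells, although 16 had a BRG1 promoter peak. KLF4 and FOXA3 were the 2 members among 20 gut lineage factors. The intervals of these last lists, 0.888% to 23.6% and 2.79% to 30.1%, included the 21.0% of all genes. The keratin and gastric lists were low already in BRG1, with a promoter peak at 20.0% and 25.0% of their genes, and the 5 gastric genes with one allow a share of members up to 43.4%. Among genes with a BRG1 promoter peak, 3 lists lay wholly below the 33.0% over all such genes. These were keratins (0 of 11, upper limit 25.9%), HOX genes (1 of 18, 25.8%) and epithelial adhesion genes (1 of 16, 28.3%).

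Of 30 known NRF2 target genes, 10 were members (33.3%, 19.2% to 51.2%), an interval that includes the 21.0% of all genes. NQO1, a quinone reductase (chr16:69726388-69726987), had 43 BRG1, 30 ACTL6A and 54 NRF2 fragments. TXNRD1, thioredoxin reductase (chr12:104286536-104287316), had 42, 12 and 73, the most NRF2 fragments of the 10, and TXN, its substrate thioredoxin (chr9:110256079-110257067), 47, 13 and 49. All 3 lay above the median over members in BRG1 (33 fragments) and NRF2 (19), and at TXN and NQO1 the ACTL6A count too was above its median of 12.

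The remaining targets that were members were lower in NRF2. PRDX1, a peroxiredoxin (chr1:45521791-45522278), had 25, 6 and 35 fragments, and UGDH, UDP-glucose dehydrogenase (chr4:39527199-39528043), 68, 17 and 30. PGD, of the pentose phosphate pathway (chr1:10398467-10399598), had 55, 16 and 29, OSGIN1, a growth inhibitor induced by oxidants (chr16:83952935-83953854), 28, 12 and 27, and BLVRB, biliverdin reductase B (chr19:40465528-40466433), 102, 22 and 26. BRG1 ranged over the 10 from 17 to 102 fragments. GCLC, the catalytic subunit of the enzyme that limits glutathione synthesis (chr6:53544791-53545250), had 25, 8 and 21, and HMOX1, heme oxygenase (chr22:35380966-35381413), 17, 6 and 17, the lowest of the 10 in BRG1 and NRF2. GCLC had further BRG1 peaks at other starts, with ACTL6A or with NRF2 alone.

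The ARE core was in the NRF2 peak of 5 of these 10, against 991 of all 3489 members (28.4%). It was within 100 bp of the NRF2 summit in 2, PRDX1 and PGD, against 361 of all members, and 10 promoters are too few to tell such shares apart. GCLC, HMOX1, UGDH, OSGIN1 and BLVRB had none in the peak. The search was for these exact letters, so a site that departs from them, as a weight matrix can score one, was not looked for, nor was an element outside the peaks.

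The targets that were not members fell short of the rule in different ways. GCLM, the modifier subunit of the same enzyme as GCLC, SLC7A11, the cystine transporter, TALDO1, EPHX1 and PIR had BRG1 and ACTL6A only, and at TALDO1 an NRF2 peak at a start shared no base with the BRG1 peak. SRXN1, sulfiredoxin, had BRG1 and NRF2 without ACTL6A. TKT, ME1, FTL, FTH1, GSR and ABCC1 had BRG1 alone. GPX2, ABCC2, ABCC3, AKR1B10, AKR1C1, AKR1C2 and AKR1C3 had no BRG1 promoter peak.

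Of 12 genes of NRF2 and its regulators, 4 were members (33.3%, 13.8% to 60.9%), an interval that includes the 21.0% of all genes. CUL3 (chr2:224585092-224586085) had 52, 20 and 23 fragments and RBX1 (chr22:40950840-40951862) 41, 24 and 36, both of the ligase that holds NRF2 low. NFE2L1, a relative of NRF2 that drives proteasome genes (chr17:48047850-48048884), had 85, 30 and 42, and BTRC, of another ligase that acts on NRF2 (chr10:101353760-101354521), 29, 7 and 14. KEAP1, the sensor of the ligase, had BRG1 and NRF2 but no ACTL6A. MAFF, MAFG, MAFK and BACH1 had BRG1 alone, and SQSTM1 and CREBBP had NRF2 at one BRG1 peak and neither partner at another. NFE2L2 itself had BRG1 peaks of 3 kinds at its starts, 1 kind with ACTL6A, 1 with NRF2 and 1 alone, and none with both.

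Of the proteins profiled, ACTL6A's own promoter (chr3:179562610-179563182) was a member, with 38 BRG1, 32 ACTL6A and 25 NRF2 fragments, and its BRG1 and ACTL6A summits lay on the same base. SMARCA4 had BRG1 with ACTL6A and no NRF2. Of 29 SWI/SNF subunit genes 9 were members (31.0%, 17.3% to 49.2%), with SMARCD2 best in rank at 75, 19 and 68 fragments, and SS18 at 48, 22 and 13. Of 24 ferroptosis regulators 7 were members (29.2%, 14.9% to 49.2%), and NCOA4, the receptor that sends ferritin to degradation, had 45, 11 and 69. SLC3A2, the partner chain of SLC7A11, had 47, 20 and 28, and LPCAT3, which builds polyunsaturated phospholipids, 79, 16 and 20. Of 18 genes of glutathione synthesis and recycling 6 were members (33.3%, 16.3% to 56.3%). Among them were GSS with 40, 9 and 24, GGCT with 32, 21 and 15 and GPX1 with 28, 10 and 21. The intervals of the SWI/SNF, ferroptosis and glutathione lists all included the 21.0% of all genes.

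Stress genes beyond NRF2 were also found among the members. Of 20 ATF4 stress genes 7 were members (35.0%, 18.1% to 56.7%), and ATF3, a factor of the stress response, had 100 BRG1, 23 ACTL6A and 22 NRF2 fragments. ASNS, asparagine synthetase, had 50, 10 and 19, and DDIT4, an inhibitor of mTOR signalling, 66, 17 and 26. Of 13 AP-1 factor genes 5 were members, the best in rank being ATF7 with 66, 24 and 63 and ATF2 with 68, 39 and 35. The intervals of both lists included 21.0%.

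The remaining lists gave the following shares. Of 32 snRNP genes, of the spliceosome, 12 were members (37.5%, 22.9% to 54.7%), and SF3B6, of the U2 particle, had 141 BRG1, 63 ACTL6A and 29 NRF2 fragments. Of 30 Mediator subunits, which link activators to RNA polymerase II, 9 were members (30.0%, 16.7% to 47.9%), with MED11 at 63, 35 and 35 and MED1 at 32, 14 and 50. Of 12 RNA polymerase II subunits 4 were members (33.3%, 13.8% to 60.9%), and all 4 of their promoters were shared with another gene back to back. Of 73 histone genes expressed in S phase 17 were members (23.3%, 15.1% to 34.2%), near the 21.0% of all genes. Of 17 mesenchymal genes 2 were members (11.8%, 3.29% to 34.3%), ACTA2 and ZEB1. Of 16 genes restricted to brain 1 was (6.25%, 1.11% to 28.3%), SLC17A7, a glutamate transporter, with 54, 9 and 22. Among these remaining lists only the snRNP interval lay wholly above 21.0%, and the others included it.

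Across chromosomes no gene of Y (0 of 63) had a member, and of the other chromosomes the share of genes with a member was lowest on X, at 7.74% (6.13% to 9.73%, 66 of 853), and highest on 14, at 26.1%, and 19, at 26.0% (23.8% to 28.4%). Of BRG1 promoter peaks, 13.4% were members on X, 15.4% on 16, 17.2% on 22 and 17.9% on 17, against 28.8% on 5. The intervals on X (10.5% to 17.1%) and 5 (25.4% to 32.5%) did not overlap.

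The thresholds of the rule passed through a continuum. The farthest member start was 991 bp away, and 82 members had their nearest start over 500 bp away, while PLEKHH3, LTBP4 and RNF208 had a BRG1 peak with both partners 1001, 1002 and 1006 bp from a start, just outside the limit. Overlap was as little as 3 bp, at ZNF473 for ACTL6A and at HIBCH for NRF2, with medians of 323 and 459 bp. Of promoters with BRG1 and NRF2, 39 had an ACTL6A peak within 100 bp that shared no base, and of those with BRG1 and ACTL6A 25 had such an NRF2 peak.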

How the data were processed

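CUT&Tag peak lists of SNU638 cells were compared, 1 library per antibody and 2 IgG libraries. Per the labels and the paper's methods, the authors sequenced 150 bp paired reads, used fastp 0.23.0, BWA and MACS2 (q-value below 0.05) on hg38, and HOMER 4.11, and the control given to MACS2 is not given in the sources used here. Each deposited list holds a score, a ratio (fold enrichment over local expectation) and −log10 p and q-values, as the authors' caller wrote them, and a summit offset. Read depth is not in the lists.

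From these, the whole number of fragments that gives both the deposited fold and p-value (within 0.001 on the −log10 scale) was recovered for each peak. Peaks sharing at least 1 bp overlapped. The classes were all 3 antibodies, BRG1 and ACTL6A, BRG1 and NRF2, and BRG1 alone. With no replicates, no p-value was computed. Shares have Wilson, differences Newcombe and medians order-statistic 95% intervals, with peaks taken as independent observations and no allowance beyond counting error. Motifs were searched on both strands in 200 bp windows of hg38 (all starts: 1 canonical transcript per gene).

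Genes named were the 10 members with the best worst rank by −log10 q over the 3 lists, up to 4 per gene list by the same rank, the genes of the NRF2 target and regulator lists (1 is not reported here) and of the proteins profiled, the members at each threshold, the 5 with an ARE core and most NRF2 fragments, and the highest members with each motif shown, which were picked after their values were seen. Members and lists were chosen with earlier results of these data known. Of 30 lists 1 symbol was not found. The overlap, recovery, motif and interval routines were tested on simulated data. Python 3.11.15, NumPy 2.4.6, pandas 2.3.3, SciPy 1.17.1, pysam 0.24.0, matplotlib 3.10.9 and samtools 1.23.1 were used. Alternatives were stricter peak thresholds, overlaps of 50%, other start distances, 1 start per gene, IgG peaks kept or removed, other windows and groups of BRG1 height.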

Additional observations from a re-analysis of the deposited data

How the results depend on the processing

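The number of members depended on the peak threshold and the overlap. With a −log10 q of at least 5, 1902 peaks at 2346 genes were members, 16.6% of BRG1 promoter peaks. With the highest 5000 peaks of each list there were 1273 at 1596 genes (39.1%), and with an overlap of 50% of both peaks 1391 at 1737 genes (9.18%). The share was 27.4% with starts within 250 bp, 19.5% within 3 kb and 25.8% with 1 start per gene, where the counts were 3329, 3591 and 3320. Keeping promoters with an IgG 2 peak gave 3495 members, and leaving out IgG 1 peaks 3489. BRG1 summits within 100 bp of a start, 48.9% of members, were 32.0% with 1 start per gene and 43.6% with starts on 1 strand. Under the stricter q threshold the median distances between summits were 59 bp for BRG1 and ACTL6A and 105 bp for BRG1 and NRF2.

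Against promoters with BRG1 and ACTL6A, the excess in divergent promoters kept its direction and an interval above 0 in all 6 alternatives. The CpG ratio, 0.0629 higher in members, was 0.105 higher at under 10 BRG1 fragments, 0.0436 at 20 to 39 and 0.0302 in windows at the start. Motifs with an interval that excluded 0 numbered 7 over all heights, 1 at under 10 fragments and 2 at 40 or more. Of the motif differences whose interval excluded 0 over all heights, 3 turned, the ARE core to -0.524 at 40 or more fragments, and the GC box to -4.35 and CTCGCGAG to -0.362 at under 10, where 63 members remained. Differences of other motifs, whose intervals included 0 to begin with (YY1, TATA, E-box, TEAD and GATA among them), also took either sign. The cause was not tested. Of 124 alternative values of 24 results, 68 stayed in the 95% interval of the main value or, for counts, near the main count, 53 moved further and 3 reversed.

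No paired analysis was possible because every antibody was profiled in a single library. Leaving out a library was not possible for the same reason. A low peak can go uncalled where reads are few. By the paper's reporting summary the NRF2 library had the most clean reads among the antibodies and the ACTL6A library the fewest. The lists held 9045 NRF2, 23917 ACTL6A and 48793 BRG1 peaks. The part of depth in the number of peaks was not tested.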
